A study of Mus musculus with 2 samples.

Results

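The regions described here are dense clusters of distal DNase-accessible sites in the gastrocnemius, the large calf muscle, of newborn mice. They were chosen by the presence and position of peaks in 2 libraries. A peak of the longer list of replicate 1 had to overlap a peak of replicate 2 by at least 1 bp and to lie on chromosomes 1 to 19, with its centre more than 1 kb from every GENCODE M21 transcript start. Peaks with centres 3 kb or less apart were joined, and the peaks of groups of 5 or more were kept. This gave 1183 member peaks in 185 dense groups, which is 2.66% of the 44530 shared distal peaks on these chromosomes and part of the 94295 peaks of replicate 1 and the 123291 of replicate 2. Both libraries came from male B6CASTF1/J mice, hybrids of C57BL/6J and CAST/EiJ, at 4 days of age, with no treatment named. Each label speaks of 3 males and of its own tissue sample, with the same donor entry for both, so a library appears to be a pool of animals. The libraries form 1 group of 2 biological replicates and there is no second condition, so every value below is a level or a count, with the spread between the libraries where it can be given. Presence and spacing of peaks are what the choice used and are given as descriptions only.

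DNase I cuts DNA that is not wrapped in nucleosomes or covered by other proteins, so stretches of dense cutting mark promoters, enhancers and other bound DNA. Distal sites are often enhancers, and genes that define a cell type, or that respond to many signals, often have several of them side by side. Such runs are known as enhancer clusters, stretch enhancers or super-enhancers. In muscle, enhancers are bound by basic helix-loop-helix factors such as MyoD at E-boxes, with MEF2, TEAD and AP-1 factors beside them. Genes for transfer RNAs, which RNA polymerase III transcribes from promoter elements inside the gene, also sit in runs in the genome, and many of them are accessible.

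The sequences below show the kinds of DNA that make up the clusters. All were read from the GRCm38.p6 reference (mm10 coordinates), which is the C57BL/6J genome, so CAST alleles are not shown. The first 8 are each the strongest member, by the mean of its ranks in both libraries, of a dense group near a gene that the results return to, on the plus strand. For Col6a1 the strongest member lies in a noncoding exon and the next strongest is shown. In the labels, upstream and downstream give the side of the start on which the middle of the group lies. The Id1 group spans the start, and the member shown lies upstream of it. Capitals mark the E-box CAGCTG for Id1, Msl1 and Lrrc74a, the AP-1 site TGANTCA for Lrrc74a, the GC box GGGCGG for Flnc and Scx, the ETS site CCGGAAG for Pecam1, the CACCC box CCACCC for Nfic and the HOX-PBX site TGATTNAT for Col6a1, on either strand.
Flnc intron, chr6:29435321-29435580: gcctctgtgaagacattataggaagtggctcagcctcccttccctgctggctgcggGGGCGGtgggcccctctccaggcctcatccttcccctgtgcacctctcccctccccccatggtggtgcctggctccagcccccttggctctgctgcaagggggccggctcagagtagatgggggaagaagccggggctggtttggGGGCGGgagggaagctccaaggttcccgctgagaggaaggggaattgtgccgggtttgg
Col6a1 upstream, chr10:76733361-76733540: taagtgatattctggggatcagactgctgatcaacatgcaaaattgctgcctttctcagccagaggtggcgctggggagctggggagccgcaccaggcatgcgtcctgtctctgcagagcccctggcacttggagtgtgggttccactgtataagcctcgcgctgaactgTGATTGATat
Scx downstream, inside Bop1, chr15:76461261-76461460: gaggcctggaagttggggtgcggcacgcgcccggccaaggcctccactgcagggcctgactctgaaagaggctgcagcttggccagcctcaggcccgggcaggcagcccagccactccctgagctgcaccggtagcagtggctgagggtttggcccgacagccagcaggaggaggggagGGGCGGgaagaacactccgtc
Pecam1 intron, chr11:106678101-106678280: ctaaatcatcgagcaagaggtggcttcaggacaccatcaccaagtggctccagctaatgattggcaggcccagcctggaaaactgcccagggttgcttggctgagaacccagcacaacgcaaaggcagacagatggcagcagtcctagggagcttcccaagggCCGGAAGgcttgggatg
Nfic intron, chr10:81429641-81429840: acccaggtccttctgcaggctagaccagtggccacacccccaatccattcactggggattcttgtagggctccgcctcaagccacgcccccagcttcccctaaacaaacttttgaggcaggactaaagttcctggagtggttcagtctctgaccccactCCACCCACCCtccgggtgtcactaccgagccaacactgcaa
Id1 downstream, chr2:152735101-152735300: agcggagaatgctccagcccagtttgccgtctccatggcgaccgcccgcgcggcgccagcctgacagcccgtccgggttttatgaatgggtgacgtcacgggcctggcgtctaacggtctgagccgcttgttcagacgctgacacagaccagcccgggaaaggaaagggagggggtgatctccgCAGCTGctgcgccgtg
Msl1 upstream, chr11:98786661-98786820: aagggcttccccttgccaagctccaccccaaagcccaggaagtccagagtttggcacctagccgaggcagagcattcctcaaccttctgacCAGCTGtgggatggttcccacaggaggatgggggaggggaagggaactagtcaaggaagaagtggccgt
Lrrc74a group, between genes, chr12:86801281-86801480: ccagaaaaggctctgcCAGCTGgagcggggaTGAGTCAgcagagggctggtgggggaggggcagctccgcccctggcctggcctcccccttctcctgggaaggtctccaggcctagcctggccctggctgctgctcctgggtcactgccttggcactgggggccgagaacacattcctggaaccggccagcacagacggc

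The next 4 are tRNA genes from the dense group whose nearest coding start is that of Aurkb, each on its own strand, from the 4 strongest members that hold such a gene. Capitals mark the B box GTTCNANNC, the inner promoter element that the polymerase III factor TFIIIC binds.
n-TWcca7, a tRNA-Trp gene, chr11:69041826-69041897, plus strand: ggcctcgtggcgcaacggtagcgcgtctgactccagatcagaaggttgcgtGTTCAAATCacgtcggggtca
n-TPcgg3, a tRNA-Pro gene, chr11:69040385-69040456, plus strand: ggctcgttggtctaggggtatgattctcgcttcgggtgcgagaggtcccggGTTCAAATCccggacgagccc
n-TDgtc9, a tRNA-Asp gene, chr11:69040984-69041055, plus strand: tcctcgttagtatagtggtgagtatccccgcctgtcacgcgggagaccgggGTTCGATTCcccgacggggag
n-TGtcc6, a tRNA-Gly gene, chr11:69041278-69041349, minus strand: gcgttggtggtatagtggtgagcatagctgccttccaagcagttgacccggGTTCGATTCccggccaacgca

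The last is a stretch of 20 bases that recurs among the members of the dense group with the most peaks, at the start of the sequenced part of chromosome 4. It was found, on either strand, in 15 of the 30 members of that group, in 5 of the 13 of the dense group after it, and in no other of the shared distal peaks.
Recurrent stretch, chromosome 4: CACAGTGGAGCACTGTGACA

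Density is the authors' cut density at a peak, and its rank is the percentile, from 0 to 100, among all peaks of that library's longer list. Ranks describe a position within a list and are not a change between libraries. Densities reached 118 in replicate 1 and 42.2 in replicate 2, with medians of 0.871 and 0.513. Read depth is not known from these lists, so no counting interval is given. The tissue label was compared with promoter peaks found in both libraries, within 500 bp of a start. Of all protein-coding genes on chromosomes 1 to 19, 65.0% had such a peak. Of the lists, 27 of 31 muscle transcription factor genes, 32 of 54 sarcomere genes, 10 of 17 neuron genes and 2 of 16 hepatocyte genes had one. The sarcomere list thus lay below the share of all genes and close to the neuron list. The other muscle lists lay above the share of all genes. They had promoter peaks at 17 of 19 dystrophin complex and costamere genes and 18 of 23 energy metabolism genes. For the neuromuscular junction it was 10 of 13, and for excitation-contraction coupling 15 of 22. Genes of other cells of muscle also had promoter peaks, at 30 of 33 for fibroblasts and matrix, 8 of 9 for tendon and 13 of 19 for endothelium. Pericytes and smooth muscle had 14 of 16, Schwann cells 10 of 13, adipocytes 9 of 14 and macrophages 1 of 16. In bulk tissue, fewer cells of a type and less accessible DNA per cell cannot be told apart.

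Most shared distal peaks stood alone. Of the groups formed by the 3 kb rule, 29456 were isolated peaks, 4735 held 2 peaks, 1051 held 3 and 317 held 4. Of the dense groups, 99 held 5 peaks, 37 held 6, 15 held 7 and 13 held 8, and the 2 largest held 21 and 30. At the threshold, peaks in groups of 4 had a median rank of 59.1 in replicate 1 and 69.1 in replicate 2, and those in groups of 5 had 61.3 and 70.7. The largest distance between neighbouring centres inside a dense group was 3000 bp, and 17 of the 185 groups had an inner distance above 2900 bp. On the other side, the nearest shared distal peak outside a group lay 3006 bp away at the closest, and within 3500 bp for 20 groups.

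**Figure D1:**
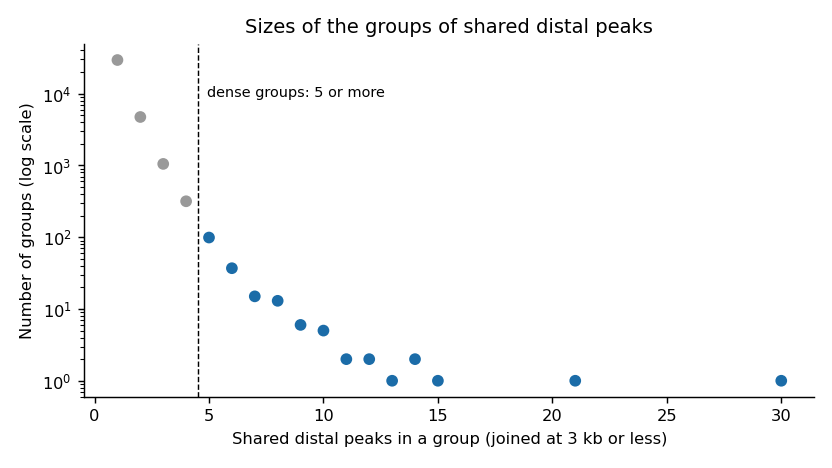
Number of groups (vertical axis, log scale) against the number of shared distal peaks in a group (horizontal axis), with the dashed line at the limit for a dense group and the dense groups in blue. Counts fall from 29456 isolated peaks to 99 groups of 5, and 1 group each has 21 and 30 peaks.

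Within a dense group the peaks were close together. The median distance between neighbouring centres was 605 bp, with the middle 50% of distances from 390 to 1185 bp, and the median span of a group was 4880 bp. Spans ran from 1513 bp, near Commd3, to 22840 bp on chromosome 4. Of the 998 neighbouring pairs, 62 overlapped or abutted, in 43 groups, and 18 groups held under 5 separate stretches once such pairs were joined. A further 150 members shared their overlapping peak of replicate 2 with another member, since a broad peak there can cover several of replicate 1. Members covered 26.8% of the span of the median group. The spans held 1366 peaks of replicate 1 and 1407 of replicate 2, and 164 of the 185 groups overlapped a dense group when the rule was run from the peaks of replicate 2, which gave 180 groups.

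Members were somewhat stronger than other shared distal peaks, and more varied. Their median rank was 56.9 in replicate 1 and 68.4 in replicate 2, a mean of 62.7 ± 8.13 (SD, n = 2 libraries). For isolated peaks the ranks were 49.2 and 60.5 and for groups of 2 to 4 they were 55.4 and 65.5. Members were thus above isolated peaks in each library. The lists differ in length, so the SD over libraries also holds that difference. In density, members had a median of 1.02 in replicate 1 and 0.793 in replicate 2, against 0.857 and 0.643 for isolated peaks. Members were more frequent at both ends: 23.6% had a mean rank of 80 or more and 14.2% one under 20, where isolated peaks had 14.1% and 7.88%. The median density ratio of replicate 1 to replicate 2 was 1.37 for members and 1.38 for all shared distal peaks.

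Members of 1 group resembled each other in strength. The intraclass correlation of the mean rank, which is the share of its variance that lies between groups, was 0.603 for members and 0.366 for groups of 2 to 4. The 150 members that shared their replicate 2 peak with another member have the same replicate 2 rank by construction. The part of this in the correlation was not tested. In 72 groups every member had a mean rank of 50 or more and in 14 every member was below 50. Even so, the median range within a group was 37.0 rank points, and 123 groups held at least 1 member of rank 80 or more. Over all 185 groups, the strongest member of the group lay inside it in 122 and at an end in 63. The strongest member of all lay in the intergenic group on chromosome 8 nearest to Irf2bp2, a transcriptional corepressor gene, with a density of 14.4 in replicate 1 and 10.6 in replicate 2, while its 5 neighbours had 0.749 to 2.83 and 0.870 to 1.85.

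**Figure D2:**
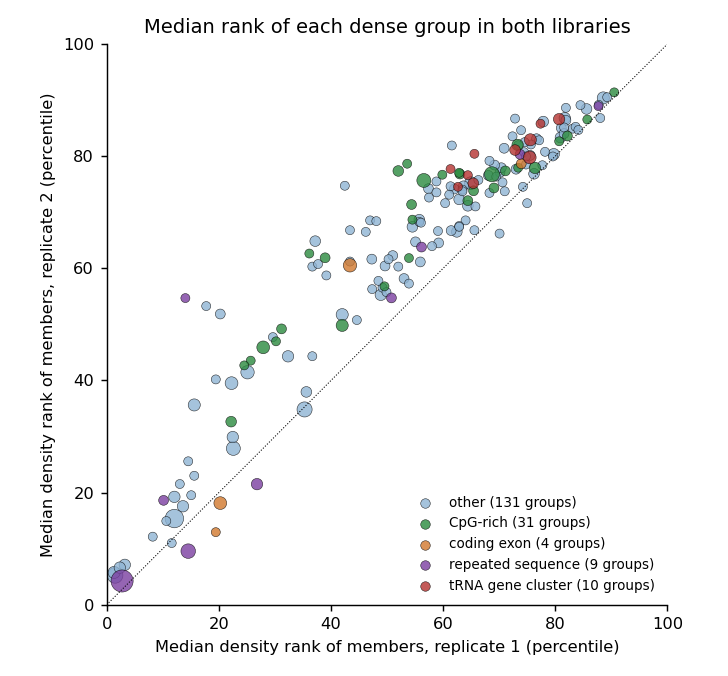
Median density rank of the members of each of the 185 dense groups in replicate 1 (horizontal axis) and replicate 2 (vertical axis), in percentiles, with points sized by the number of members and coloured by kind of group. tRNA gene clusters lie in the upper right, and the large purple point at the lower left is the group of 30 peaks on chromosome 4, at 2.75 and 4.25.

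The groups were sorted into 5 kinds by annotation and sequence, without their density and after the data had been seen. A group was a tRNA gene cluster if at least 2 members touched a RefSeq tRNA gene, and repeated sequence if the median member was at least 40% soft-masked or at least 30% of its 31-base words occurred elsewhere in the genome. It was CpG-rich if the median member had an observed-to-expected CpG ratio of at least 0.6 and a GC content of at least 50%, and a coding exon group if at least 50% of its members were centred in coding exons. By these rules there were 10 tRNA gene clusters with 66 members, 9 groups of repeated sequence with 85, 31 CpG-rich groups with 199, 4 coding exon groups with 32 and 131 others with 801.

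The tRNA gene clusters were strong in both libraries. Their members had a median rank of 72.5 in replicate 1 and 79.9 in replicate 2, and the 10 groups ran only from 64.8 to 83.8 in median mean rank. In them, 38 of the 66 members touched a tRNA gene, and these had ranks of 79.9 and 86.1, against 58.3 and 73.8 for the 28 members beside them. The B box was found in the 200 bp window of 31 of these 38 members and of 2 of the other 28, against 6.53% of all shared distal peaks. A footprint, a short stretch inside accessible DNA that is protected from cutting, was found in both libraries in 97.4% of the members with a tRNA gene and in 75% of those without. Of the shared distal peaks as a whole 0.274% touched a tRNA gene, of members 3.21%. Of the 386 tRNA genes on chromosomes 1 to 19, 175 were touched by a replicate 1 peak and 122 by a shared distal peak. The rule barred only the starts of the GENCODE M21 transcripts, and 93.9% of the members of these groups lay within 1 kb of a RefSeq start.

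The group near Aurkb shows how tRNA genes were spaced. From left to right its 8 members had densities of 2.15, 1.31, 1.19, 1.17, 3.05, 2.79, 2.38 and 3.19 in replicate 1. In replicate 2 they had 1.55, 1.02, 0.883, 0.986, 2.14, 1.98, 2.12 and 2.33. The first lay in a coding exon, and the other 7 each held a tRNA gene, n-TIaat5, n-TSaga4 and n-TTagt8 in the left run and the 4 printed above in the right run. The right run was higher than the left in both libraries. The neighbouring group near Borcs6 held 4 tRNA genes in 7 members, of which n-TWcca6, for tryptophan, had 5.87 and 2.63. The strongest tRNA gene of any dense group was n-THgtg3, for histidine, near Shf, with 8.88 and 5.09. It lay in a group with 2 more tRNA-His genes. The groups near Hfe2, with 5 tRNA genes in 9 members, and near Olfr1423, with 6 members that touched such a gene out of 10, were larger, with medians of 75.6 and 82.9, and of 75.4 and 79.8. The other 5 clusters lay near Dhx37, Mpzl1, Vac14, Irgm1 and Rnase12.

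Groups of repeated sequence included the largest and some of the weakest. The group of 30 members at chr4:3050061-3072900 began 60 bp after the first sequenced base of the chromosome and had densities of 0.108 to 0.743 in replicate 1 and 0.0900 to 0.510 in replicate 2, with median ranks of 2.75 and 4.25. Its median member was 49.8% soft-masked, and only 4 of its 30 members held a footprint in both libraries. The group of 13 after it, at chr4:3078826-3086260, had median ranks of 14.5 and 9.57. Low-FDR stretches, which are bases with a false discovery rate under 0.05 in the deposited lists, covered 64.9% and 76.2% of the larger span in replicates 1 and 2. In all, 4 dense groups with 56 members lay within 500 kb of the first sequenced base of a chromosome, where there were 223 shared distal peaks. Of these, the group near Sfi1, on chromosome 11, had median ranks of 87.7 and 88.9 and footprints in both libraries in 5 of 5 members. The part of repeat copies and of read placement in these densities was not tested.

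Flnc encodes filamin C, an actin cross-linker of the Z-disc and the muscle cell membrane. Of the listed sarcomere genes, Flnc alone was the nearest gene of a dense group, which lay in its first part. Its 6 members at chr6:29434201-29439580 all lay in introns and had densities of 2.13, 2.11, 5.596, 2.49, 3.87 and 2.12 in replicate 1. In replicate 2 they had 1.31, 1.55, 2.91, 1.61, 2.06 and 1.13. The third from the left, whose sequence is printed above with its 2 GC boxes, was the highest in both libraries. The median ranks were 81.1 and 85.02, and 5 of the 6 had a footprint in both libraries, as had 83.7% of all shared distal peaks.

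Nfic, which encodes a nuclear factor I protein, held a longer and weaker intronic run of 14 members at chr10:81419250-81429840. Its densities ran from 0.392 to 3.90 in replicate 1, with a median of 0.645, and from 0.230 to 2.68 in replicate 2, with a median of 0.388. The member at the right end, printed above, was the strongest, and the next were a pair in the middle at 1.99 and 1.85, and 1.42 and 1.41. A related gene, Nfix, is not the nearest gene of any dense group by the naming rule, but 1 group of 5 lay inside it, 29438 bp from a start, with median ranks of 73.4 and 81.9. Another group of 5, nearest to Dand5, lay 13057 bp upstream of an Nfix start, with median ranks of 89.3 and 90.5.

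Connective tissue genes with a cluster included Col6a1, Serpinh1 and Pdgfra. Upstream of Col6a1, which encodes a collagen VI chain of the matrix around muscle fibres, 7 members at chr10:76727390-76735300 had densities of 0.459, 5.89, 0.425, 1.48, 3.83, 5.41 and 2.97 in replicate 1. In replicate 2 they had 0.287, 4.08, 0.267, 0.920, 2.14, 3.49 and 1.96. The second and the sixth were the highest in both libraries and the first and the third the lowest. The median ranks were 85.6 and 88.4. Upstream of Serpinh1, the gene of a collagen chaperone, 5 members had 2.77, 1.59, 0.783, 4.98 and 3.33 in replicate 1 and 2.07, 1.07, 0.556, 3.39 and 3.05 in replicate 2. Near Pdgfra, a growth factor receptor that marks fibroblast-like progenitors of muscle, 5 members upstream of the start had 0.837, 1.53, 1.13, 0.932 and 4.37 in replicate 1. In replicate 2 they had 0.640, 1.24, 0.976, 0.773 and 3.50, with the member closest to the start the highest in both.

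The tendon factor gene Scx, which encodes scleraxis, had 6 members 7410 bp downstream of its start, all in introns of Bop1, a ribosome biogenesis gene that surrounds it. Their densities were 5.87, 1.93, 2.21, 3.66, 2.01 and 2.53 in replicate 1 and 2.61, 1.42, 1.34, 2.19, 1.38 and 1.57 in replicate 2. Every member had a footprint in both libraries, and 3 of the 6 held CAGCTG, where all shared distal peaks had 83.7% and 29.95%. A group of 5 was 62827 bp from the start of Thbs4, which encodes a thrombospondin of tendon and muscle matrix, at a median of 66.3 and 75.7. In Pecam1, an adhesion gene of endothelial cells, an intronic run of 5 had densities of 1.73, 2.38, 0.857, 0.844 and 3.40 in replicate 1 and 1.13, 1.45, 0.833, 0.833 and 1.90 in replicate 2. Ngfr, a neurotrophin receptor gene of Schwann cells, had 7 members at its 3′ end and beyond it, with ranks of 62.9 and 72.3. The 2 groups near Foxd3, a neural crest factor gene, had median ranks of 29.6 and 47.7 downstream of its start and of 24.5 and 42.7 upstream.

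**Figure D3:**
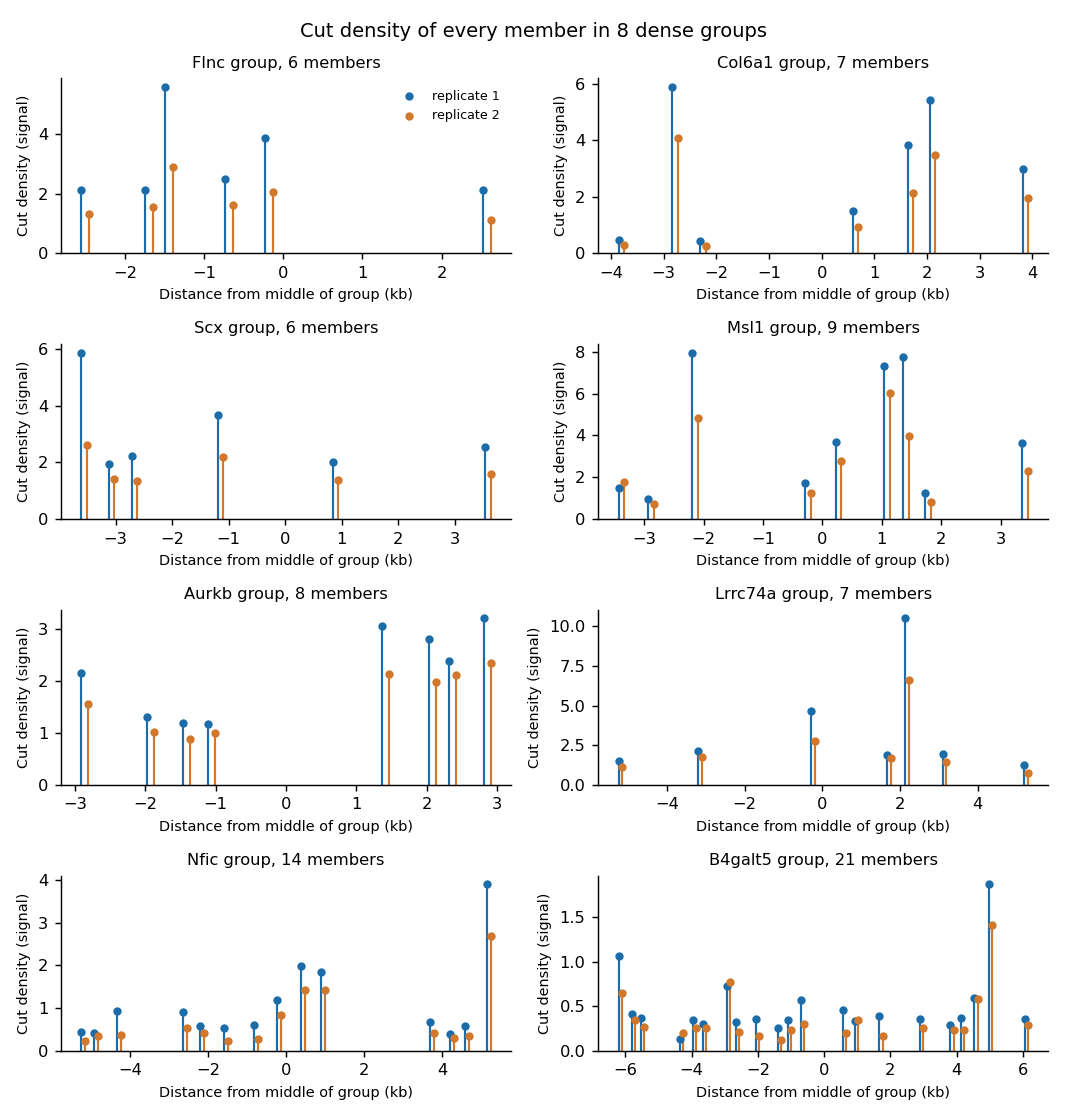
Cut density (signal, vertical axis) of every member of 8 dense groups in replicate 1 (blue) and replicate 2 (orange), by distance from the middle of the group in kb. The highest member is the same in both libraries in the Flnc, Col6a1, Scx, Lrrc74a, Nfic, Aurkb and B4galt5 groups, and the Msl1 group has its highest at 7.97 in replicate 1 and another at 6.02 in replicate 2.

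The 6 groups with the highest median mean rank lay near Gm11444 and Tbx2, Dand5, Msl1, Ski, Sfi1 and Id1. The first was a run of 5 at chr11:85842061-85844900 with median ranks of 90.5 and 91.4. Its nearest coding start is Gm11444, and it lies 10940 bp downstream of the start of Tbx2 and 42931 bp upstream of that of Tbx4, a T-box gene of the hindlimb. Its densities were 3.50, 0.506, 4.26, 4.89 and 5.56 in replicate 1 and 1.83, 0.413, 2.51, 2.92 and 3.71 in replicate 2, so 4 of the 5 were strong. The group near Dand5 had 7.74, 3.84, 1.30, 1.32 and 10.6 in replicate 1 and 4.49, 2.32, 0.813, 0.916 and 5.80 in replicate 2, with both ends higher than the middle. A run of 9 between Msl1, a chromatin complex gene, and Nr1d1, a clock repressor gene whose start lies 10341 bp away, had densities from 0.938 to 7.97 in replicate 1 and from 0.720 to 6.02 in replicate 2, with median ranks of 88.6 and 90.4. Near Ski, a repressor of TGF-beta signalling, 5 members had 3.94, 0.844, 3.97, 3.43 and 1.12 in replicate 1 and 2.70, 0.693, 3.47, 2.08 and 0.966 in replicate 2. On both sides of the start of Id1, which encodes an inhibitor of basic helix-loop-helix factors, lay 5 members. They had 6.02, 1.10, 3.86, 0.999 and 3.50 in replicate 1 and 4.20, 0.493, 2.07, 1.03 and 1.76 in replicate 2. The first member lay upstream of the start, and the middle of the group lay 2670 bp downstream.

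The lists of growth factor signalling and of immediate early, stress and clock genes had groups at distances from 467 to 334900 bp from a start. The 11 members at Irs1, the insulin receptor substrate gene, lay with 9 in its coding exon and had densities of 0.371 to 1.30 in replicate 1 and 0.433 to 0.970 in replicate 2. None of the 11 had a footprint in both libraries. At Spry2, an inhibitor of growth factor signalling, 7 members ran from 0.554 to 5.79 in replicate 1 and from 0.383 to 3.13 in replicate 2, and the highest was the same peak in both libraries. At Gadd45g, a stress response gene, 5 members had 2.88, 0.857, 3.62, 2.57 and 0.952, and 1.57, 0.636, 2.67, 2.08 and 0.560. A group of 5 lay 334900 bp from the start of Foxo1, a regulator of muscle mass, and had median ranks of 74.2 and 74.5. At that distance the nearest start names the place and shows no link to the gene.

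In all, 12 genes were the nearest gene of more than 1 dense group. Actg1, a cytoskeletal actin gene, was nearest to 3. Its groups of 9, 8 and 5 members had median ranks of 15.6 and 35.6, 32.3 and 44.3, and 11.6 and 11.01, with most peaks weak. The first of these groups also held a peak of 8.14 in replicate 1 and 4.19 in replicate 2, and the second one of 6.27 and 3.53. Kdm6b, a histone demethylase gene, had 2 groups of 8 on either side of a start, with ranks of 73.3 and 82.0 inside the gene and of 79.7 and 80.4 upstream. Dlk1, an imprinted Notch ligand gene that is active in young muscle, had 2 upstream groups, of 7 members at 76.2 and 76.9 and of 5 at 78.2 and 80.8. Lrrc74a also had 2, of 7 members at 77.9 and 86.2 and of 5 at 81.6 and 85.1. In the larger of these, the member printed above with its E-box and AP-1 site stood at 10.5 and 6.59, while its neighbours had 1.24 to 4.63 and 0.773 to 2.77.

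At the other end, 17 groups with 166 members had a median mean rank under 20. Of these, 10 held 8 or more members, 1 held 6 and 6 held 5, and 3 of the 17 had a member of mean rank 80 or more. The median was 8 members, against 5 in the groups of rank 20 to 80 and in those of 80 or more. The group downstream of B4galt5, a glycosyltransferase gene, had 21 members at chr2:167268098-167280514 with median densities of 0.358 and 0.257 and median ranks of 12.1 and 15.4. A single member near its right end reached 1.87 and 1.42. The 15 members of the group in and next to Vps33a, a vesicle trafficking gene, had 0.0743 to 0.311 in replicate 1 and 0.0566 to 0.197 in replicate 2, and no member exceeded a mean rank of 8.27. The 9 members in and around Zbp1, a nucleic acid sensor gene, had median ranks of 1.33 and 5.78. Of the 8 members of the group nearest to Plxna1, 7 had a density of 0.108 to 0.668 in replicate 1 and 0.137 to 0.456 in replicate 2, and the first had 3.75 and 2.35.

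Low-FDR bases between members were also measured in these groups. In the 17 weak groups, bases between the members had an FDR under 0.05 over 44.3% of their length at the median in replicate 1 and 50.3% in replicate 2. In the 144 groups of median mean rank 20 to 80 this was 17.3% and 35.7%, and in the 24 groups of 80 or more it was 15.3% and 35.4%. In the B4galt5 group low-FDR bases covered 69.6% of the span in replicate 1 and 96.1% in replicate 2. Footprints followed rank: 31.3% of members of the weak groups had one in both libraries, 74.1% of those of the middle groups and 91.4% of those of the strong groups. Of the members of the weak groups 61.4% touched a peak in both shorter lists, against 64.5% and 82.1%.

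**Figure D4:**
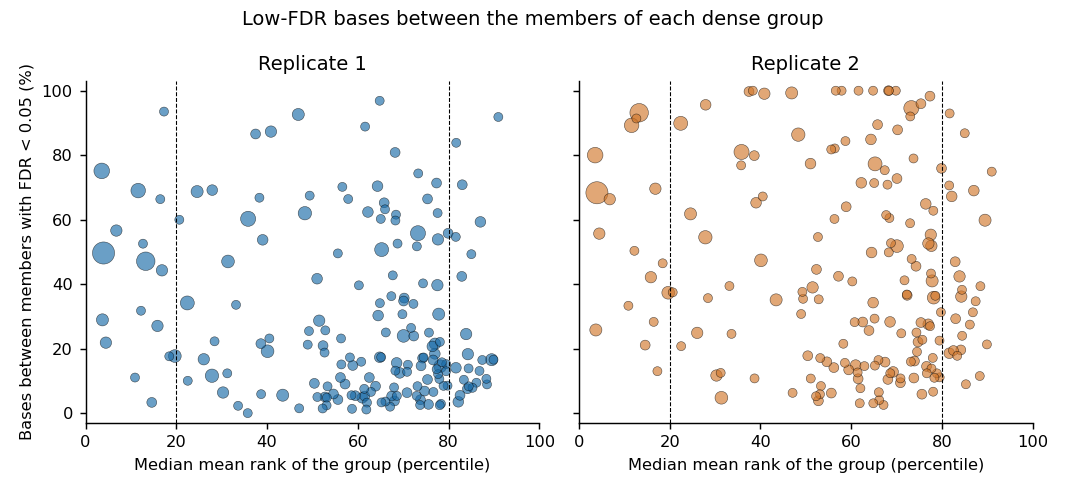
Share of the bases between the members of each dense group with an FDR under 0.05 (vertical axis, percent) against the median mean rank of the group (horizontal axis, percentile) in replicate 1 (left) and replicate 2 (right), with points sized by the number of members and dashed lines at ranks 20 and 80. The groups of 30, 21 and 15 peaks lie at the left, with cover of 47.1% to 75.1% in replicate 1, and the groups of 80 or more have medians of 15.3% and 35.4%.

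Group size and rank went in opposite directions beyond 7 peaks. Members of groups of 5 had a median mean rank of 66.0, those of groups of 6 to 7 of 69.2, those of groups of 8 to 9 of 46.4 and those of groups of 10 or more of 27.1. The share with a footprint in both libraries was 77.6%, 77.7%, 62.7% and 45.8% in the same order. The part of peak calling in broad regions was not tested.

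CpG-rich groups and coding exon groups lay close to starts. Members of the 31 CpG-rich groups had a median distance of 3751 bp to any GENCODE M21 start, against 7592 bp in the 131 other groups, and 23.6% were centred in coding exons. A RefSeq start lay within 1 kb of 23.1% of the members of CpG-rich groups and 7.87% of those of the other groups. The largest, of 14 members, was at Tnrc18, with median ranks of 68.7 and 76.8. Zfp503, a zinc finger gene of developing tissues, had 12 members at 56.6 and 75.7, with the highest at 7.57 and 4.95. Otx1 and Irx5, both homeobox genes and both picked after their values were seen, had 10 members at 27.9 and 45.9 and 9 at 42.0 and 49.8. Of the 4 coding exon groups, that of Plec, the gene of plectin, which links intermediate filaments to the Z-disc and membrane, had 9 of 10 members in coding exons, with densities of 0.371 to 0.641 in replicate 1 and 0.250 to 0.297 in replicate 2.

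Over all members, position differed from that of isolated shared distal peaks. Of members, 33.6% were centred in introns, 51.6% between genes and 9.38% in coding exons, where isolated peaks had 48.2%, 44.7% and 2.96%. The median distance to any GENCODE M21 start was 6759 bp for members and 11835 bp for isolated peaks, and 41.4% of members and 27.4% of isolated peaks lay within 5 kb of such a start. RefSeq starts were not barred by the rule, and 14.8% of members and 3.89% of isolated peaks lay within 1 kb of one. The median 200 bp window of a member had 57% GC and a CpG ratio of 0.345, against 52.5% and 0.244. Of members, 20.5% were CpG-rich, of isolated peaks 5.10%. Groups of 2 to 4 lay between these classes in GC, with 55%, and in CpG-rich windows, with 10.7%.

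Some motifs were less frequent among members and others more frequent. The E-box CAGCTG, which MyoD and other myogenic factors bind, was found in 21.6% of the 1183 members, against 29.7% of isolated peaks, 31.1% of peaks in groups of 2 to 4 and 29.95% of all shared distal peaks. The CTCF core, a motif of the insulator protein, was found in 3.72%, 10.3% and 6.59% of members, isolated peaks and groups of 2 to 4, and in 8.95% of all. The TEAD site GGAATG was found in 10.6% of members and 13.9% of isolated peaks (13.8% of all), the C/EBP site TTGCNNAA in 4.82% and 8.51% (8.02% of all), and the NFI palindrome in 2.79% and 5.09% (4.71% of all). The AP-1 site TGANTCA was in 6.34% and 7.98%, with 7.87% of all. The RUNX site, at 13.4% and 14.4%, and the nuclear receptor half-site AGGTCA, at 12.3% and 11.9%, differed less. The GC box GGGCGG had the opposite order, at 21.1% of members, 9.98% of isolated peaks and 11.8% of all, as had the CACCC box CCACCC, at 27.8%, 19.5% and 21.2%. Both are rich in G and C, as members are. Each motif was searched on both strands of the 200 bp window, and motifs can overlap each other.

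Below a mean rank of 80, the E-box share was lower in members than in isolated peaks of the same broad rank class. Ranks within a class were not matched. Among peaks with a mean rank of 20 to 80, CAGCTG was in 21.9% of 736 members and 30.8% of 22988 isolated peaks, and among those under 20 in 16.1% of 168 and 27.4% of 2321. Among those of 80 or more the shares were close, at 24.4% of 279 members and 25.03% of 4147 isolated peaks. Peaks in groups of 2 to 4 had 28.5% under rank 20, 31.8% at 20 to 80 and 28.9% at 80 or more. By kind of group, it was in 25.5% of members of the 131 other groups, 15.6% of those of CpG-rich groups, 15.2% in tRNA gene clusters and 3.53% in repeated sequence. At the level of groups, 147 of 185 held at least 1 member with CAGCTG, and 26 held 3 or more. Each dense group has several members that can hold the motif, so a high group count alone shows no enrichment. By peaks, the share was 21.6% of members and 29.95% of all shared distal peaks. Whether the group counts differ from those of other shared distal peaks taken in sets of the same sizes was not tested. In the repeated sequence groups the RUNX site TGTGGT was in 41 of 85 members, of which 26 lay in the group of 30 at the start of chromosome 4 and 10 in the group of 13 after it, against 14.0% of all shared distal peaks.

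**Figure D5:**
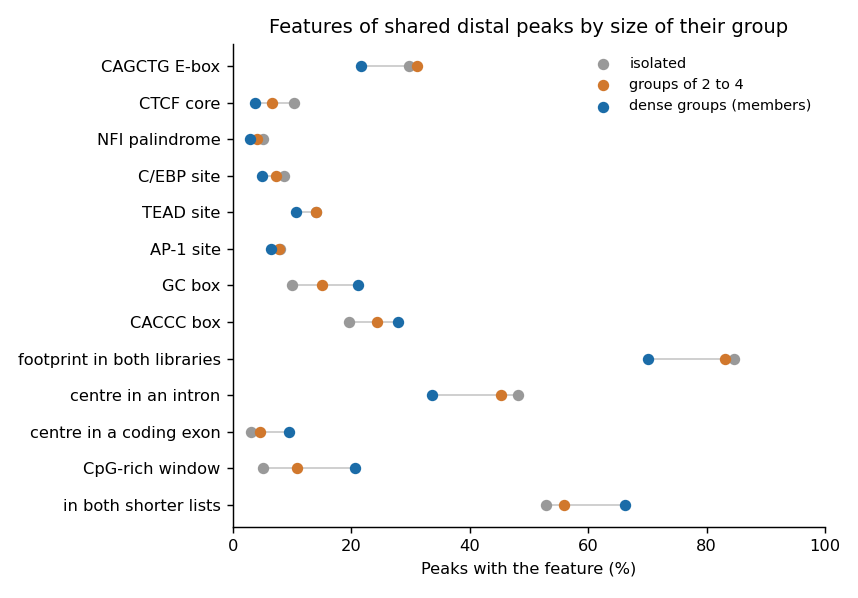
Share of peaks (horizontal axis, percent) with each feature among isolated shared distal peaks (grey), peaks in groups of 2 to 4 (orange) and members of dense groups (blue), on the 200 bp window for motifs. Members are to the left for the E-box at 21.6%, the CTCF core and footprints, and to the right for the GC box at 21.1% and CpG-rich windows at 20.5%.

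Footprints were less frequent in members than in other shared distal peaks. A footprint in both libraries was found in 70.2% of members, 83.1% of peaks in groups of 2 to 4 and 84.6% of isolated peaks, although members were wider, with a median of 200 bp against 160 bp. Per 100 bp there were 0.959 footprints in replicate 1 and 1.14 in replicate 2 for members, and 1.18 and 1.45 for isolated peaks. The shares were equal among strong peaks, with 99.6% of members of rank 80 or more and 99.8% of isolated ones. Under rank 20 they were 19.05% and 35.3%. Members touched both shorter lists in 66.2% of cases, more often than the 52.8% of isolated peaks.

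Dense groups were counted by their nearest protein-coding gene. Of the 20698 protein-coding genes on chromosomes 1 to 19, 172 were the nearest gene of a dense group, which is 0.831%, and 1.61% had a start within 50 kb of the middle of one. Among the 412 genes of the 18 lists these shares were 4.13%, or 17 genes, and 5.58%, or 23. The lists were chosen with earlier results of these data known, so the difference from all genes is a description and not a test. By nearest start the lists had 1 of 54 sarcomere genes (Flnc), 1 of 31 muscle transcription factor genes (Nfic), 2 of 33 fibroblast and matrix genes (Pdgfra and Col6a1), 2 of 9 tendon genes (Scx and Thbs4), 1 of 19 endothelial genes (Pecam1) and 2 of 13 Schwann cell genes (Ngfr and Foxd3). Growth factor signalling had 5 of 40, with Igf2r, Irs1, Spry2, Spry4 and Fzd7. Immediate early, stress and clock genes had 3 of 39, with Ier2, Gadd45g and Foxo1. The other 10 lists had none, among them those of the neuromuscular junction, excitation-contraction coupling, energy metabolism, the dystrophin complex, macrophages, adipocytes, hepatocytes and neurons. Within 50 kb there were further Tmod4 and Pdlim7 of the sarcomere, Stac3 of excitation-contraction coupling, Tbx4 and Tbx2 of limb identity, Nfix, and Per1 and Nr1d1 of the clock, and also Foxa3 of the hepatocyte list. Promoter peaks shared by the libraries were present at 80.8% of the 172 nearest genes, against 65.0% of all protein-coding genes.

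A few groups coincided with tested enhancers. RefSeq annotates as regulatory features some elements of the VISTA collection, which were tested for enhancer activity in mouse embryos, and 29 members in 8 groups touched such an element. A RefSeq regulatory feature of any kind was touched by 2.45% of members, 1.35% of peaks in groups of 2 to 4 and 0.519% of isolated peaks. Of all shared distal peaks, 0.829% touched one. Each of the 8 elements was touched by 2 to 5 members, and a share by peaks counts it each time. The 8 groups were those nearest to Plxna1, Irf2bp2 between genes, Ski, Sorl1, Scarf2, Cbx7 and Cxxc5, and the group inside Nfix. In the Sorl1 group all 5 members touched 1 element. The genome did not hold the groups evenly: chromosome 11 had 29 of the 185, or 15.7%, with 7.62% of the shared distal peaks, and chromosome 19 had 1, with 2.74%. On chromosome 11, 5.54% of shared distal peaks were members.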

How the data were processed

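DNase-seq was made from gastrocnemius tissue of male B6CASTF1/J mice at 4 days of age, in 2 libraries that the labels call biological replicates. Peak, footprint and FDR lists in mm10 were made by the submitters from each library's filtered alignments, per the file listing. Not given in the sources used here: aligner, peak caller, versions and list thresholds. The deposited peak lists carry a cut density, which was used as signal. The deposited footprint lists carry a constant score of 0.01, so only positions were used. The deposited FDR lists give a false discovery rate, a q-value, per stretch, and stretches under 0.05 were used.

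Peaks were overlapped and joined in Python 3.11.15 with numpy 2.4.6. GC content, CpG ratio and 27 motifs were read in 200 bp windows at peak centres from GRCm38.p6. Transcript starts came from GENCODE M21, and tRNA genes and regulatory features from RefSeq. Of 426 list entries, 425 matched a gene. The steps were tested on simulated data. No filter on low values was used, so all 1183 members are described. With 1 group there is no contrast, and no p-value was computed. The depth of reads is unknown.

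The naming rule took the 12 groups with most members and up to 2 groups for each gene list. It also took the 6 with the highest median mean rank and the 3 longest and 3 shortest spans. Last came the 5 genes nearest to most groups. Not all of these are described above. The groups nearest to Gm21863, Hjurp, Gm37419 and Fzd8 were left out, as were those nearest to Ahnak2 and Bcl9l. The tRNA gene clusters and the groups at Plec, Plxna1, Serpinh1, Actg1, Kdm6b, Dlk1, Irf2bp2, Zbp1, Otx1, Irx5 and Nfix, and the second at Lrrc74a, were added after their values were seen, as were the sequences of Id1, Msl1, Lrrc74a and the tRNA genes. The members and lists were chosen with earlier results of these data known. Alternatives covered the join distance, group size, start distance, overlap, peak list and base library.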

Additional observations from a re-analysis of the deposited data

How the results depend on the processing

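The number of groups and members follows the rule that defines them. The 185 groups became 116 at a join distance of 2 kb, 333 at 5 kb, 502 with at least 4 peaks, 86 with at least 6, 78 with an overlap of at least 50% of both peaks and 64 with the shorter lists. The 1183 members became 765, 2140, 2451, 688, 457 and 424 in the same order. With RefSeq starts also barred, an alternative added after seeing the data, 142 groups and 901 members were left. The 2.66% of shared distal peaks that are members ranged from 1.21% to 5.50% over the other rules and was 6.88% or 12.4% without 1 library, and the 0.831% of genes nearest to a group ranged from 0.280% to 2.23% and was 2.09% or 5.03%. Without 1 of the libraries, where no overlap was asked, there were 481 to 1237 groups and 4041 to 10124 members. Their median rank was then 18.3 to 19.8, against 62.1, a setting that also replaced the mean rank by the rank in 1 list. It was 72.7 with the stricter overlap and 48.1 with the shorter lists. The intron share of 33.6% was 37.9% at 5 kb, 25.2% with the shorter lists, 37.0% without the tRNA and repeated-sequence groups (an alternative chosen after seeing the data) and 37.3% to 41.7% without 1 library. The share with a footprint in both libraries, 70.2%, was 62.9% at 2 kb, 77.6% at 5 kb, 75.7% with at least 4 peaks, 64.8% with at least 6, 83.2% with the stricter overlap, 66.3% with the shorter lists and 59.0% to 67.1% without 1 library. The CAGCTG share of 21.6% was 25.9% at 5 kb and 25.7% with at least 4 peaks. The causes were not tested. Of 146 alternative values, 76 stayed within the limits set. These were 1.5 times for the numbers of groups and members, and the spread between libraries for medians. For shares the limit was a binomial interval, which treats peaks or genes as independent though they are not replicates. No paired analysis was possible because there is 1 group of samples.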
